A study of Homo sapiens with 38 samples.

Results

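Integrins, laminins and collagens are the receptors and the structural proteins through which an epithelial cell holds on to its matrix. The genes were taken by name: every gene of the expression table with a single symbol that begins with ITGA or ITGB, that is LAMA, LAMB or LAMC followed by a digit, or that is a numbered collagen chain. The rule found 47 genes, each with 1 probe set, among 14488 probe sets, of which 12132 had 1 symbol. They comprise 10 integrin alpha subunits, 6 integrin beta subunits, 6 laminin chains and 23 collagen chains. The remaining 2, ITGB1BP1 and ITGB3BP, are named after the beta subunits that they bind and are not integrins themselves. ITGB1BP1 binds the tail of ITGB1, and ITGB3BP also works as a centromere protein.

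RNA of A549 cells was measured on 38 Affymetrix arrays. A549 is an established human lung adenocarcinoma line, used here at passages 90 to 110. One arm received a pool of siRNAs against ORMDL3, a protein of the endoplasmic reticulum membrane that restrains sphingolipid synthesis, and the other arm was the control. The sources used here do not state what, if anything, the control cells were transfected with. Silencing lasted 48 h and was followed by 24 h without serum in both arms, and the cells then received 1 ng/ml of interleukin 1 beta (IL1B) for 2, 4, 8 or 10 h, or were taken untreated at 0 h. Arm and hour define 10 groups of 4 arrays, but control 8 h and knockdown 0 h have only 3, which makes 19 arrays an arm. No untreated array stood beside the later hours, so IL1B and further time in culture cannot be told apart. Nothing in the labels tells whether the replicates of a group came from separate cultures. A p-value here therefore measures the spread between these samples alone, and that spread may be technical. In bulk RNA, fewer cells of a type and less RNA per cell cannot be told apart.

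An integrin is a pair of an alpha and a beta subunit that spans the membrane, binds matrix outside the cell and links to the cytoskeleton inside it. ITGB1 pairs with many alpha subunits to make receptors for collagen (ITGA2, ITGA10, ITGA11), laminin (ITGA3, ITGA6) and fibronectin (ITGA5), whereas ITGB4 pairs with ITGA6 in hemidesmosomes, which anchor epithelium to laminin. Laminins are trimers of an alpha, a beta and a gamma chain, and with the collagen IV network they form the basement membrane under an epithelium. Other collagens build fibrils (COL1A1, COL5A1), decorate them (the fibril-associated collagens such as COL12A1) or form beaded filaments (COL6A1, COL6A2). In the lung, integrins that contain ITGAV, ITGB8 among their partners, are known for releasing TGF-beta from its latent complex.

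All values are log2 expression levels as deposited, and differences are log2 differences of group means ± the standard error of limma's model. The word called stands for an adjusted p under 0.05 (limma, Benjamini-Hochberg over all 14488 probe sets). ORMDL3 lay between 6.78 and 7.77 in the control arrays and between 5.00 and 5.57 in the knockdown arrays. The arrays numbered 4 stood apart from the others: on the leading component of the spread within groups, all 9 of them scored at least 5.26, a score passed by only 1 array of another number. The main counts are therefore also given without them. All 6 epithelial markers looked for were measured, and CDH1 lay at 9.07 to 10.63, KRT8 at 12.48 to 13.41 and KRT18 at 12.10 to 12.80 over the arrays. Of 9 alveolar type II markers only ABCA3 and LAMP3 were measured here with a single symbol, and of 10 fibroblast, 6 endothelial and 9 leukocyte markers 4, 1 and 3 were. The members' probe set means lay below the lower quartile of all probe sets (6.64) for 19 members. Among these are ITGAX, ITGB2, ITGB3, ITGA10, ITGA2B, LAMC3, COL21A1, COL4A5 and COL4A6. No detection values were used, so presence of these RNAs was not tested.

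The comparison of knockdown with control asked how the matrix and its receptors stand in cells depleted of ORMDL3. As the mean of the 5 hours, 23 of the 47 members were higher in knockdown and 1 was lower. Of all probe sets 10.9% were called higher and 12.1% lower. The difference was positive for 37 members, and the members' median was 0.10 against -0.01 over all probe sets. Integrin alpha subunits were higher in 8 of 10 cases, collagen IV chains in 4 of 4, collagen VI chains in 2 of 2, laminin chains in 3 of 6, fibrillar collagens in 2 of 6, fibril-associated collagens in 1 of 6 and the remaining collagens in 0 of 5. Of the 6 integrin beta subunits 2 were higher and 1 was lower. The families were not tested against each other, and 5 of the 6 fibril-associated and 4 of the 5 remaining collagens lay below the lower quartile of all probe sets, against 3 of the 10 integrin alpha subunits. The called differences were small, from 0.09 ± 0.03 for LAMB1 to 0.69 ± 0.07 for ITGB4, the latter a 1.62-fold difference. Without the arrays numbered 4, 19 members were higher and 1 was lower, where 8.83% of all probe sets were higher and 9.59% lower. Without the probe sets below the median level, 12 of the 17 members left were higher and 1 was lower, where 13.1% of the probe sets left were higher and 17% lower.

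Markers of cell types moved with the knockdown too. Of the 6 epithelial markers, KRT19 was higher (0.60 ± 0.04, adjusted p = 1.15e-12) and EPCAM lower (-0.19 ± 0.06, adjusted p = 0.034), and the other 4 were not called. The mean level of these 6 markers ran from 10.13 to 11.01 over the control arrays and from 10.32 to 11.09 over the knockdown arrays. ABCA3, 1 of the 2 alveolar markers measured, was higher (0.27 ± 0.05, adjusted p = 4.23e-05), as was S100A4, 1 of the 4 fibroblast markers (0.13 ± 0.05, adjusted p = 0.0499). The other alveolar marker, LAMP3 (0.05 ± 0.04), and the fibroblast markers ACTA2 (-0.04 ± 0.05), THY1 (0.06 ± 0.04) and TWIST1 (0.02 ± 0.05) were not called. The mean of the fibroblast markers ran from 7.87 to 8.53 in control and from 7.89 to 8.60 in knockdown. The endothelial marker CDH5 was not called (0.07 ± 0.05). The part of these markers in the members' differences was not tested.

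**Figure D1:**
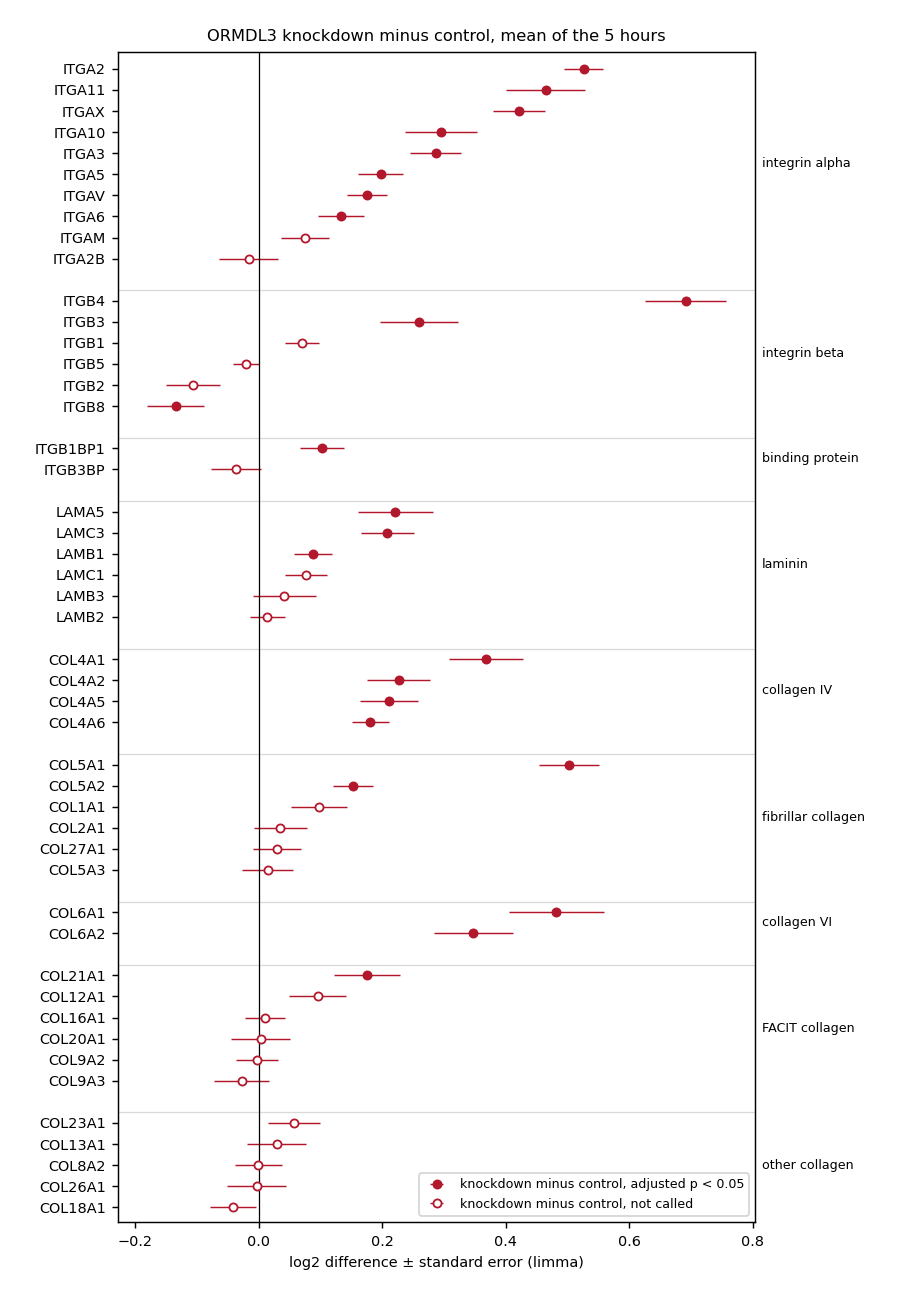
The log2 difference between knockdown and control, averaged over the 5 hours, is plotted for each of the 47 genes with the standard error of limma's model, grouped by family and sorted within it. Filled points have an adjusted p under 0.05. ITGB4 lies farthest to the right at 0.69, and ITGB8 at -0.13 is the only filled point to the left of 0.

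Hour by hour, the knockdown arm differed from control in 8 members at 0 h (7 higher), 10 at 2 h (all higher), 5 at 4 h (all higher), 7 at 8 h (6 higher) and 6 at 10 h (5 higher). Among all probe sets 3.31%, 6.18%, 1.84%, 2.88% and 2.28% were called at these hours. Before IL1B, the 7 higher members were ITGA2 (0.71 ± 0.07), COL5A1 (0.56 ± 0.11), COL4A1 (0.54 ± 0.14), COL21A1 (0.49 ± 0.12), ITGAX (0.34 ± 0.10), ITGAV (0.32 ± 0.08) and ITGAM (0.32 ± 0.09), and the lower one was COL9A3 (-0.37 ± 0.10). These counts by hour rest on few arrays, and shares of all probe sets are not given for the omissions below. Leaving out single arrays gave 3 to 9 at 0 h, 6 to 13 at 2 h, 1 to 6 at 4 h, 3 to 8 at 8 h and 3 to 7 at 10 h. At 0 h the count was 3 without knockdown replicate 2 or 4, 4 without control replicate 1, 2 or 3, and 5 without knockdown replicate 1. At 2 h it was 6 without control replicate 1 or 3 or knockdown replicate 4. At 4 h it was 1 without control replicate 3 or knockdown replicate 4, 2 without control replicate 1 and 3 without control replicate 2. At 8 h it was 3 without control replicate 1 and 4 without control replicate 2 or 3 or knockdown replicate 4, and at 10 h 3 without control replicate 3 or knockdown replicate 4. Called at every one of the 5 hours, all higher, were ITGA2, COL5A1 and ITGAX, and each of their knockdown arrays lay above each control array of the same hour. How many of all probe sets did the same was not counted, so these genes are only described.

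ITGB4, the hemidesmosome subunit, had the largest difference. Its control arrays read 10.88, 10.99, 10.88 and 11.26 (0 h), 10.55, 10.62, 10.56 and 11.06 (2 h), 10.24, 10.34, 10.18 and 10.95 (4 h), 9.45, 9.75 and 9.48 (8 h), and 9.61, 9.49, 9.62 and 9.77 (10 h). In knockdown, ITGB4 read 11.21, 11.27 and 11.70 (0 h), 11.45, 11.27, 11.48 and 11.61 (2 h), 10.85, 11.01, 11.15 and 11.23 (4 h), 10.44, 10.41, 10.62 and 10.65 (8 h), and 10.23, 10.06, 10.53 and 10.52 (10 h). The arms did not overlap at 2, 8 and 10 h and overlapped at 0 and 4 h, where the control array numbered 4 was the highest of its group. The differences at 0, 2, 4, 8 and 10 h were 0.39 ± 0.15, 0.75 ± 0.14, 0.63 ± 0.14, 0.97 ± 0.15 and 0.71 ± 0.14, and the mean was 0.69 ± 0.07 (95% interval 0.56 to 0.83, adjusted p = 1.43e-09). ITGA6, its partner, was higher by 0.13 ± 0.04 (adjusted p = 0.00961). Without the arrays numbered 1, 3 or 4 ITGA6 was not called (adjusted p up to 0.188).

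The collagen receptor subunit ITGA2 had the smallest adjusted p of all members. Control arrays of ITGA2 read 10.69, 10.54, 10.60 and 10.61 (0 h), 10.66, 10.58, 10.51 and 10.62 (2 h), 11.02, 10.87, 10.80 and 10.95 (4 h), 11.59, 11.47 and 11.37 (8 h), and 11.72, 11.65, 11.54 and 11.62 (10 h). Its knockdown arrays read 11.39, 11.24 and 11.34 (0 h), 11.20, 11.04, 11.18 and 11.31 (2 h), 11.52, 11.26, 11.43 and 11.56 (4 h), 11.88, 11.86, 11.80 and 11.95 (8 h), and 12.12, 11.96, 11.95 and 12.12 (10 h). Knockdown was higher by 0.71 ± 0.07, 0.59 ± 0.07, 0.53 ± 0.07, 0.39 ± 0.07 and 0.41 ± 0.07 at the 5 hours, a mean of 0.53 ± 0.03 or 1.44-fold (adjusted p = 3.63e-14). Both other collagen receptor subunits measured were higher too: ITGA11 by 0.46 ± 0.06, adjusted p = 1.52e-06, and ITGA10 by 0.29 ± 0.06, adjusted p = 0.000289. ITGA11 at 2 h, for example, read 7.48, 7.50, 7.29 and 7.67 in control and 7.98, 7.69, 8.15 and 8.26 in knockdown, without overlap. ITGB1, the shared partner of these 3 subunits, differed by 0.07 ± 0.03 and was not called (adjusted p = 0.059), although it passed the test under 11 of 49 alternatives.

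Among the laminin and fibronectin receptors, ITGA3 was higher by 0.29 ± 0.04, adjusted p = 3.15e-06, and the fibronectin receptor subunit ITGA5 by 0.20 ± 0.04, adjusted p = 0.000129. ITGA3 read 11.49, 11.59 and 11.60 in control and 11.91, 11.91, 11.94 and 12.02 in knockdown at 8 h, where the arms did not overlap. ITGAV, which pairs with several beta subunits, was higher by 0.18 ± 0.03, adjusted p = 0.000129. Its partners did not follow one direction: ITGB3 was higher by 0.26 ± 0.06 (adjusted p = 0.00292), ITGB5 stood at -0.02 ± 0.02 without a call, and ITGB8 was lower, at -0.13 ± 0.05 (adjusted p = 0.0327). The ITGB5 mean joins hours of opposite sign, with knockdown higher at 2 of the 5. All its knockdown arrays lay below all control arrays at 0 h (at most 12.19 against at least 12.22) and at 2 h (12.01 against 12.06), without a call at either hour. The ITGB3 difference was 0.25 ± 0.15, -0.03 ± 0.14, 0.21 ± 0.14, 0.29 ± 0.15 and 0.58 ± 0.14 at 0, 2, 4, 8 and 10 h, and it missed the threshold once the arrays numbered 2 were left out (adjusted p = 0.0603). For ITGB8 the difference was 0.06 ± 0.11, 0.09 ± 0.10, -0.04 ± 0.10, -0.41 ± 0.11 and -0.38 ± 0.10 at these hours, with the 2 arms apart at 8 and 10 h. Its mean difference was not called under 10 of 49 alternatives, among them leaving out control replicate 1 at any hour, control replicate 2 at 8 or 10 h, or knockdown 0 h replicate 2 (adjusted p up to 0.267 over the alternatives).

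ITGAX, ITGAM and ITGB2 are known from leukocytes, where ITGB2 pairs with ITGAM or ITGAX, and ITGA2B pairs with ITGB3 on platelets. ITGAX read 6.22, 6.38, 6.16 and 6.25 (0 h), 6.10, 6.30, 6.11 and 6.45 (2 h), 6.30, 6.38, 6.28 and 6.47 (4 h), 6.36, 6.44 and 6.35 (8 h), and 6.68, 6.31, 6.37 and 6.49 (10 h) in control. Knockdown arrays of ITGAX read 6.63, 6.50 and 6.66 (0 h), 6.65, 6.71, 6.71 and 6.83 (2 h), 6.80, 6.68, 6.49 and 6.96 (4 h), 6.85, 6.81, 6.75 and 6.82 (8 h), and 6.80, 6.87, 6.90 and 7.18 (10 h). The mean difference was 0.42 ± 0.04, adjusted p = 3.66e-09, while ITGAM (0.07 ± 0.04), ITGB2 (-0.11 ± 0.04) and ITGA2B (-0.02 ± 0.05) were not called. Of the leukocyte markers measured, CD68 was higher by 0.14 ± 0.04 in knockdown, and CD14 (-0.02 ± 0.07) and CD79A (-0.12 ± 0.05) were not called. The part of these markers in the ITGAX difference was not tested.

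**Figure D2:**
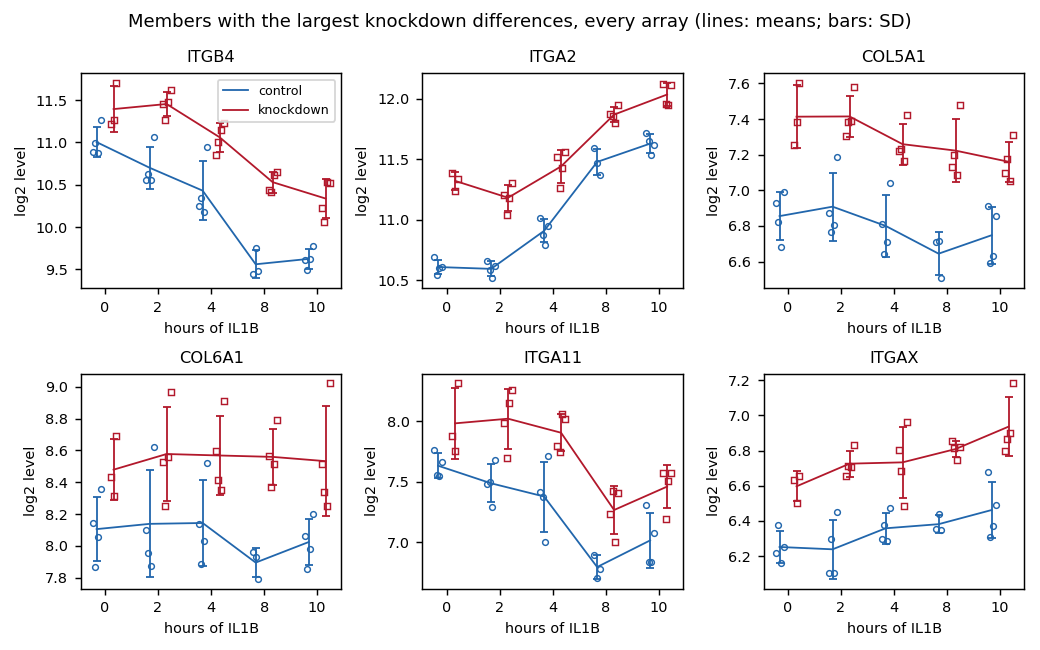
The log2 level of ITGB4, ITGA2, COL5A1, COL6A1, ITGA11 and ITGAX is plotted against the hours of IL1B for every array, with circles for control, squares for knockdown, lines through the group means and bars of 1 SD. For ITGA2, COL5A1 and ITGAX the squares lie above the circles at all 5 hours, and ITGB4 declines over the hours in both arms.

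Of the laminin chains 3 were called. LAMA5, an alpha chain of epithelial basement membranes, was higher in knockdown by 0.22 ± 0.06, adjusted p = 0.00714, the gamma chain LAMC3 by 0.21 ± 0.04, adjusted p = 0.000493, and LAMB1 by 0.09 ± 0.03, adjusted p = 0.0343. LAMC3, with a mean of 6.34 over the arrays, lay below the lower quartile of all probe sets (6.64). LAMA5 was not called once the arrays numbered 3 were left out (adjusted p = 0.202). LAMB1 was not called under 14 of 49 alternatives (adjusted p up to 0.262). Its call went with control 2 h replicate 1, control replicate 3 at 0, 4, 8 or 10 h, knockdown replicate 3 at 2 or 4 h, or knockdown replicate 4 at 0, 4, 8 or 10 h left out. LAMC1 (0.08 ± 0.03), LAMB3 (0.04 ± 0.05) and LAMB2 (0.01 ± 0.03) were not called.

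Of the collagens, COL5A1, which starts and limits the width of collagen fibrils, differed most. In control its arrays read 6.93, 6.82, 6.68 and 6.99 (0 h), 6.87, 6.77, 6.81 and 7.19 (2 h), 6.81, 6.64, 6.71 and 7.04 (4 h), 6.71, 6.72 and 6.51 (8 h), and 6.91, 6.59, 6.63 and 6.86 (10 h). COL5A1 in knockdown read 7.25, 7.38 and 7.60 (0 h), 7.30, 7.38, 7.39 and 7.58 (2 h), 7.22, 7.23, 7.16 and 7.42 (4 h), 7.13, 7.20, 7.09 and 7.48 (8 h), and 7.10, 7.18, 7.05 and 7.31 (10 h). No knockdown array was as low as a control array of its hour, and the mean difference was 0.50 ± 0.05 or 1.42-fold (adjusted p = 1.63e-09). Its partner chain COL5A2 was higher by 0.15 ± 0.03, adjusted p = 0.000649. The third chain of that collagen, COL5A3, stood at 0.01 ± 0.04 and was not called, like COL1A1 (0.10 ± 0.05), COL2A1 (0.03 ± 0.04) and COL27A1 (0.03 ± 0.04).

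Both measured collagen VI chains were higher. COL6A1 differed by 0.48 ± 0.08, adjusted p = 1.67e-05, and COL6A2 by 0.35 ± 0.06, adjusted p = 0.00012. At 10 h COL6A1 read 8.06, 7.85, 7.98 and 8.20 in control and 8.52, 8.34, 8.25 and 9.02 in knockdown, apart at this hour and at 8 h and overlapping at the other 3 hours. COL6A2 was apart at 8 h, with 7.13, 7.09 and 7.03 against 7.61, 7.38, 7.61 and 7.66. The arrays numbered 4 gave the highest COL6A1 level in each of the 9 groups that hold one.

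All 4 measured collagen IV chains were higher in knockdown: COL4A1 by 0.37 ± 0.06, adjusted p = 2.23e-05, COL4A2 by 0.23 ± 0.05, adjusted p = 0.00132, COL4A5 by 0.21 ± 0.05, adjusted p = 0.00102, and COL4A6 by 0.18 ± 0.03, adjusted p = 3.15e-05. COL4A1 and COL4A2 make up the widespread form of the basement membrane network, and their genes stand head to head, as do COL4A5 and COL4A6. In RefSeq (GRCh38.p14) the starts of COL4A1 and COL4A2 are separated by 126 bases at chr13:110307158-110307283. This stretch is shown because both genes share it as their promoter and because they moved the same way in both comparisons. On the plus strand, 5′ to 3′, with COL4A1 transcribed to the left and COL4A2 to the right, it reads, with a CCAAT box in capitals:
COL4A1 to COL4A2: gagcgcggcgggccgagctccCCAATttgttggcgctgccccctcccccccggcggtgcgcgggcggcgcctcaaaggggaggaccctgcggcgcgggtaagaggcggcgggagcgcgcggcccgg
For COL4A5 and COL4A6 the starts lie 379 or 1415 bases apart, depending on which of the 2 starts of COL4A6 is taken. The letters CCAAT, searched on both strands after this stretch had been seen, occur in 34.6% of all 35116 RefSeq promoter windows (250 bases before to 50 after a start). Counted by gene, 39.7% of the 27305 genes with a window hold them, and 31.4% of the members, 11 of 35. Among these are all 4 collagen IV chains, whose windows overlap within each pair: the COL4A1 and COL4A2 matches are the same letters, and both matches of COL4A5 are counted again for COL4A6.

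**Figure D3:**
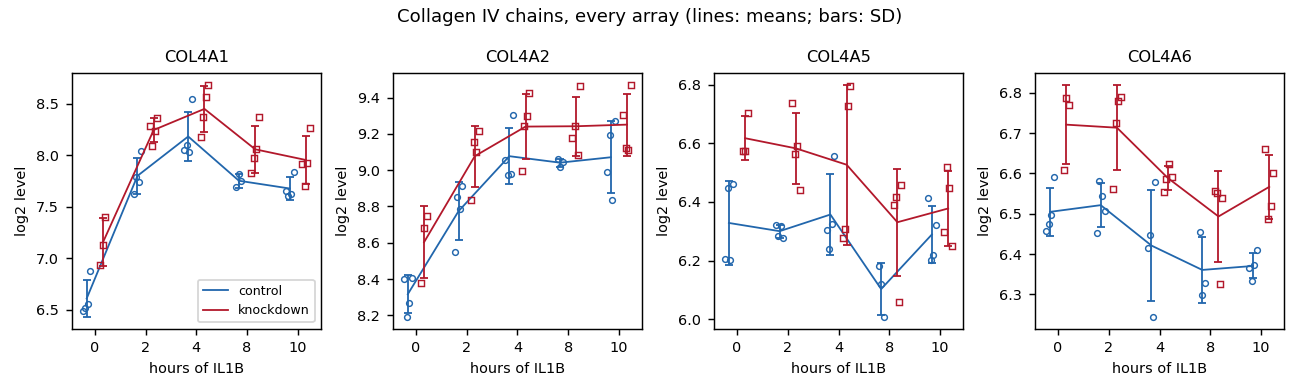
The log2 level of the 4 collagen IV chains is plotted against the hours of IL1B for every array, with circles for control, squares for knockdown, lines through the means and bars of 1 SD. COL4A1 and COL4A2 lie higher at every later hour than at 0 h in both arms, and no such rise is seen for COL4A5 and COL4A6.

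The fibril-associated collagen COL21A1 was higher by 0.18 ± 0.05, adjusted p = 0.0146, but not called without the arrays numbered 3 or 4 (adjusted p up to 0.146). COL12A1 (0.10 ± 0.05), COL16A1 (0.01 ± 0.03), COL9A2 (-0.0025 ± 0.03), COL9A3 (-0.03 ± 0.04) and COL20A1 (0.00 ± 0.05) were not called. Among the 5 remaining collagens, values ran from -0.04 ± 0.04 for the basement membrane collagen COL18A1 to 0.06 ± 0.04 for the transmembrane collagen COL23A1. ITGB1BP1 was higher by 0.10 ± 0.04, adjusted p = 0.0352, a call lost under 17 of 49 alternatives (adjusted p up to 0.138). The single arrays behind this were control 0 h replicate 3, 4 h replicates 1 and 4, 8 h replicates 1 and 2 and 10 h replicates 1 and 3, and knockdown 0 h replicate 4, 2 h replicates 3 and 4, 4 h replicate 1, 8 h replicate 4 and 10 h replicate 2. ITGB3BP stood at -0.04 ± 0.04.

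The comparison of IL1B with 0 h in control cells asked how the same genes respond to the cytokine. As the mean of 4 hours, 12 members rose and 14 fell. Among all probe sets 18.1% rose and 21.2% fell, and the median was -0.01 for the members and -0.02 for all probe sets. The laminin chain LAMB3 (by 2.56 ± 0.09, 5.88-fold) and the integrin subunit ITGB8 (by 2.42 ± 0.08, 5.35-fold) rose most, ahead of COL4A1 (1.24 ± 0.10), ITGA5 (0.83 ± 0.06) and COL4A2 (0.67 ± 0.09). ITGB4 fell most (-0.92 ± 0.11), followed by ITGA11 (-0.46 ± 0.11) and LAMB1 (-0.45 ± 0.05). By hour, 9 members rose and 1 fell at 2 h, 12 rose and 11 fell at 4 h, and 10 rose and 12 fell at 8 h and again at 10 h. Of all probe sets 20%, 37.9%, 34.3% and 34.7% were called at these hours. Leaving out the arrays numbered 4 gave the same counts for the mean, 12 higher and 14 lower, where 37% of all probe sets were called. At 2 h this omission gave 9 higher and 5 lower, where 18.6% of all probe sets were called. The count of 10 at 2 h became 5 without the arrays numbered 2, an omission for which the share of all probe sets is not given.

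Beside these changes, all 6 epithelial markers fell, among them CDH1 by -0.81 ± 0.08 and KRT19 by -0.66 ± 0.07, and the endothelial marker CDH5 (range 4.90 to 7.04) rose by 1.13 ± 0.09. The alveolar marker LAMP3 rose by 2.37 ± 0.07, and the other alveolar marker measured, ABCA3, was not called (-0.13 ± 0.08). Of the fibroblast markers THY1 (-0.73 ± 0.07) and ACTA2 (-0.46 ± 0.09) fell, and TWIST1 (0.16 ± 0.08) and S100A4 (-0.14 ± 0.09) were not called. The part of these markers in the members' changes was not tested.

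**Figure D4:**
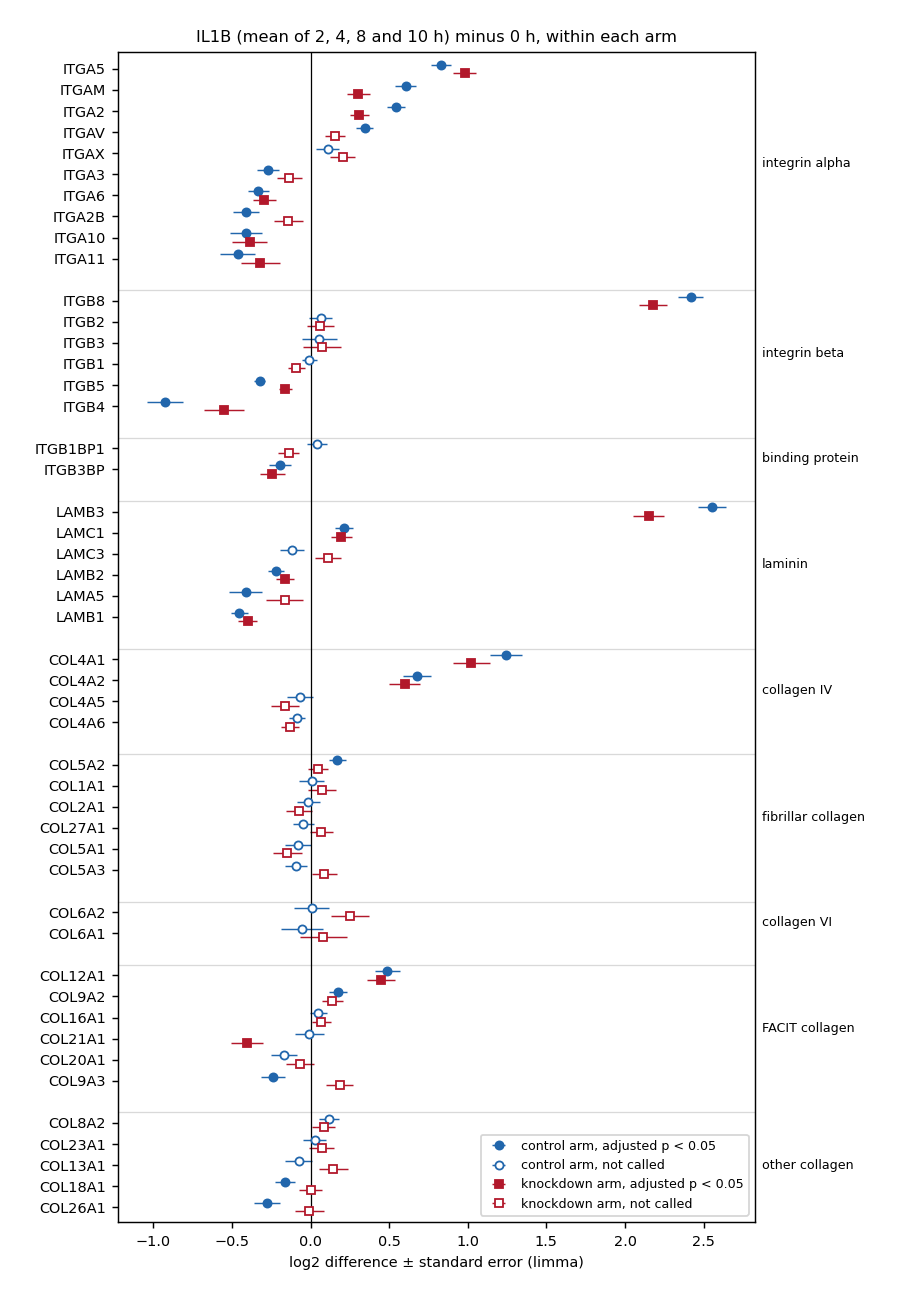
The log2 difference between IL1B (mean of 2, 4, 8 and 10 h) and 0 h is plotted for the 47 genes with the standard error of limma's model, with circles for the control arm and squares for the knockdown arm. Filled symbols have an adjusted p under 0.05. LAMB3 and ITGB8 lie above 2 in both arms, and ITGB4 lies lowest.

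LAMB3 is the beta chain of the laminin to which hemidesmosomes attach. In control, LAMB3 read 7.49, 6.96, 7.36 and 7.42 (0 h), 9.12, 9.47, 9.18 and 9.19 (2 h), 9.98, 10.14, 9.86 and 9.97 (4 h), 9.95, 10.23 and 9.97 (8 h), and 10.13, 10.48, 9.98 and 10.10 (10 h). In the knockdown arm it read 7.54, 7.59 and 7.89 (0 h), 9.43, 9.49, 9.28 and 9.42 (2 h), 9.75, 10.09, 9.90 and 9.85 (4 h), 9.93, 10.08, 9.84 and 9.87 (8 h), and 10.22, 9.92, 9.93 and 10.19 (10 h). Every later array lay above every 0 h array in both arms. The control rises at 2, 4, 8 and 10 h were 1.93 ± 0.11, 2.68 ± 0.11, 2.74 ± 0.12 and 2.86 ± 0.11, with an adjusted p of 3.36e-22 for their mean. The knockdown rises were 1.73 ± 0.12, 2.22 ± 0.12, 2.26 ± 0.12 and 2.39 ± 0.12. The other laminin chains had smaller values: LAMC1 rose by 0.21 ± 0.06, adjusted p = 0.00411 (0.0526 without the arrays numbered 2), and LAMB1, LAMA5 and LAMB2 fell by 0.45 ± 0.05, 0.41 ± 0.10 and 0.22 ± 0.05 (adjusted p = 1.35e-08, 0.0018 and 0.000584). LAMC3 stood at -0.12 ± 0.07 without a call. Thus LAMA5, LAMB1 and LAMC1, which join in a common epithelial laminin, did not share a direction.

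ITGB8 stood highest at 4 h in both arms. ITGB8 read 7.49, 7.01, 6.96 and 7.09 (0 h), 9.35, 9.09, 9.05 and 9.10 (2 h), 10.11, 10.00, 9.75 and 9.87 (4 h), 9.83, 9.75 and 9.48 (8 h), and 9.64, 9.59, 9.34 and 9.25 (10 h) in control. Its levels in knockdown were 7.24, 7.09 and 7.27 (0 h), 9.23, 9.14, 9.23 and 9.36 (2 h), 9.99, 9.85, 9.83 and 9.92 (4 h), 9.26, 9.38, 9.18 and 9.29 (8 h), and 9.18, 9.05, 9.06 and 9.02 (10 h). All later arrays stood above the 0 h arrays in both arms, and at 8 and 10 h all knockdown arrays stood below all control arrays. Rises over 0 h in control were 2.01 ± 0.10, 2.80 ± 0.10, 2.55 ± 0.11 and 2.32 ± 0.10, and in knockdown 2.04 ± 0.11, 2.70 ± 0.11, 2.08 ± 0.11 and 1.88 ± 0.11. ITGAV, the partner of ITGB8, rose by 0.34 ± 0.06, adjusted p = 6.86e-06, whereas ITGB5 fell by 0.32 ± 0.04 (adjusted p = 8.31e-09) and ITGB3 (0.06 ± 0.11) and ITGB1 (-0.01 ± 0.05) were not called.

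ITGA5 rose by 0.83 ± 0.06, adjusted p = 7.01e-13. Its control arrays went from 10.02, 9.93, 10.14 and 10.15 at 0 h to 10.84, 10.89, 10.91 and 10.99 at 2 h, and were at 11.02, 10.88, 10.82 and 10.98 at 10 h. For ITGA2 the differences from 0 h were -0.02 ± 0.07, 0.30 ± 0.07, 0.87 ± 0.07 and 1.02 ± 0.07 at 2, 4, 8 and 10 h, and that at 2 h was not called. ITGAM rose by 0.61 ± 0.07, adjusted p = 4.73e-09, while its partner ITGB2 (0.06 ± 0.08) and ITGAX (0.11 ± 0.07) were not called. Of the leukocyte markers, CD14 (-0.12 ± 0.11), CD68 (0.10 ± 0.07) and CD79A (-0.04 ± 0.09) were not called for IL1B either.

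ITGB4 differed from 0 h by -0.30 ± 0.14, -0.57 ± 0.14, -1.44 ± 0.15 and -1.38 ± 0.14 at 2, 4, 8 and 10 h, and here too the difference at 2 h was not called. In control the 4 arrays at 0 h lay at 10.88, 10.99, 10.88 and 11.26 and those at 10 h at 9.61, 9.49, 9.62 and 9.77, as given above, without overlap. ITGA6 fell by 0.33 ± 0.07 (adjusted p = 0.000102) and ITGA3 by 0.27 ± 0.07 (adjusted p = 0.00257), so all 3 of the laminin receptor subunits named here fell. The collagen receptor subunits ITGA11 and ITGA10 fell by 0.46 ± 0.11 and 0.41 ± 0.10 (adjusted p = 0.000949 and 0.00135), opposite in sign to ITGA2. ITGA2B fell by 0.41 ± 0.08 (adjusted p = 0.000151). ITGB5 read 12.24, 12.22, 12.25 and 12.31 at 0 h and 11.80, 11.85 and 11.82 at 8 h, a small fall with little spread.

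**Figure D5:**
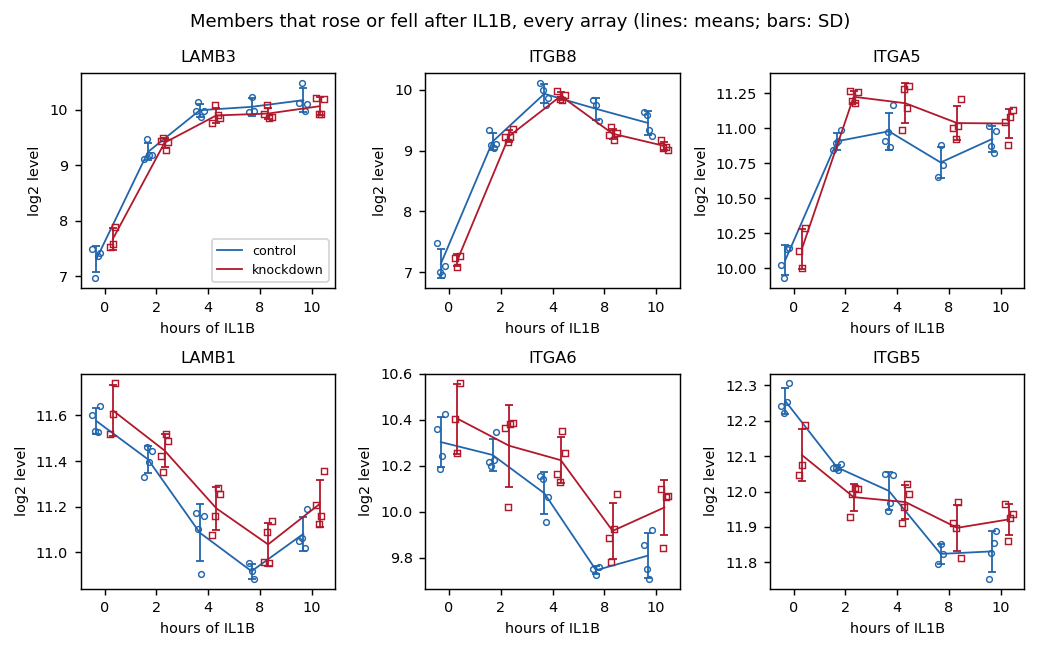
The log2 level of LAMB3, ITGB8, ITGA5, LAMB1, ITGA6 and ITGB5 is plotted against the hours of IL1B for every array, with circles for control, squares for knockdown, lines through the group means and bars of 1 SD. LAMB3, ITGB8 and ITGA5 step up between 0 and 2 h in both arms. The group means of the other 3 genes lie lower at every later hour than at 0 h.

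Among collagens, COL4A1 rose by 1.19 ± 0.13, 1.57 ± 0.13, 1.14 ± 0.14 and 1.07 ± 0.13 at 2, 4, 8 and 10 h, a mean of 1.24 ± 0.10 or 2.37-fold (adjusted p = 6.97e-12). Its control arrays read 6.49, 6.52, 6.56 and 6.88 (0 h), 7.63, 7.79, 7.74 and 8.04 (2 h), 8.05, 8.10, 8.04 and 8.55 (4 h), 7.69, 7.82 and 7.75 (8 h), and 7.65, 7.60, 7.62 and 7.84 (10 h). COL4A2 rose by 0.46 ± 0.11, 0.76 ± 0.11, 0.72 ± 0.12 and 0.75 ± 0.11, a mean of 0.67 ± 0.09, adjusted p = 1.48e-07. COL4A2 read 8.40, 8.19, 8.27 and 8.41 at 0 h and 9.06, 8.97, 8.98 and 9.30 at 4 h in control. COL4A5 (-0.07 ± 0.08) and COL4A6 (-0.09 ± 0.05), the chains of the other head-to-head pair, were not called. COL12A1, a fibril-associated collagen of tissues under tension, rose by 0.49 ± 0.08, adjusted p = 6.79e-06, with 7.74, 7.59, 7.63 and 7.61 at 0 h and 8.51, 8.42, 8.22 and 8.29 at 10 h.

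The other called collagens changed by little. COL9A2 (0.18 ± 0.06) and COL5A2 (0.17 ± 0.06) rose, and COL26A1 (-0.28 ± 0.08), COL9A3 (-0.24 ± 0.08) and COL18A1 (-0.16 ± 0.06) fell, and each of these 5 calls was lost under at least 2 alternatives (adjusted p up to 0.129, 0.103, 0.111, 0.15 and 0.297 in this order). Single arrays whose omission ended a call were control 0 h replicate 1 for COL9A2, replicate 3 for COL5A2 and replicate 2 for COL9A3. For COL18A1 they were control 0 h replicates 2, 3 and 4, 2 h replicates 1, 2 and 3, 4 h replicates 2 and 3, 8 h replicates 1 and 3 and 10 h replicates 2 and 3. COL5A1 (-0.08 ± 0.08), COL6A1 (-0.06 ± 0.13) and COL6A2 (0.01 ± 0.11), which were higher in knockdown, were not called for IL1B in control. ITGB3BP fell by 0.19 ± 0.07 (adjusted p = 0.0259; up to 0.12 over the alternatives, with the call lost without control 0 h replicate 2, 3 or 4), and ITGB1BP1 stood at 0.04 ± 0.06.

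Of 3 motifs searched on both strands of the promoter windows, TGANTCA (AP-1 type) was found for 9.37% of all genes with a window and for 5.71% of the members, 2 of 35, namely LAMB3 and ITGA5, which are among the 11 risers with a window. These matches are shown because LAMB3 and ITGA5 were among the members that rose most after IL1B. The LAMB3 match belongs to 1 of its 3 starts, with its leading base 67 bases before that start (chr1:209651424-209651452, minus strand, GRCh38.p14). The ITGA5 match runs over the start itself (chr12:54419266-54419283, minus strand, GRCh38.p14). The motif is in capitals:
LAMB3: gtcagccactcTGACTCAttcactttggg
ITGA5: cctccccgcgtTGAGTCA
The NF-kB type motif (GGG, any 2 bases, TTTCC) occurred for 2.33% of genes and for 0 of the 35 members, which says only that these letters are not in these windows. GGAATG (TEAD type) occurred for 16.7% of genes and for 11.4% of the members, the 4 being COL12A1, ITGA10, ITGA5 and ITGB1. A match describes letters and not a site in use.

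In the knockdown arm, 9 members rose and 9 fell as the mean of the 4 hours of IL1B, while 12.1% of all probe sets rose and 19% fell. ITGB8 (2.18 ± 0.09), LAMB3 (2.15 ± 0.10), COL4A1 (1.02 ± 0.12) and ITGA5 (0.98 ± 0.07) again had the highest values, and ITGB4 (-0.55 ± 0.13) the lowest. COL21A1, for which control gave -0.01 ± 0.09, fell by 0.41 ± 0.10 (adjusted p = 0.00223), but the difference between the arms was not called (-0.40 ± 0.14, adjusted p = 0.301). The count of 9 that fell became 5 without all arrays numbered 4, where 28.6% of all probe sets were called in either direction. It became 4 without the array knockdown 0 h replicate 4, an omission for which the share of all probe sets is not given.

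Whether the response to IL1B differed between the arms was tested directly. As the mean of 4 hours 0 members were called (limma, adjusted p under 0.05; 12 of 47 at an unadjusted p under 0.05), beside 0.235% of all probe sets. The unadjusted share was 25.5% of members and 10.3% of all probe sets. In the joint F test over the 4 hours 0 members were called, beside 0.166% of all probe sets. At an unadjusted p under 0.05 it gave 8 members (17%), beside 8.51% of all probe sets. Array weights called 6 members for the mean and 4 in the joint test, where 3.7% and 3.15% of all probe sets were called, and the replicate block 0 and 1. The 6 smallest joint p-values belonged to ITGB8, ITGB5, ITGAM, COL9A3, LAMB3 and ITGA2, with adjusted p of 0.233, 0.341, 0.366, 0.366, 0.482 and 0.482. The difference in response (knockdown minus control) of LAMB3 was -0.41 ± 0.13 (95% interval -0.68 to -0.13, adjusted p = 0.279), with a start at 0 h of 7.54, 7.59 and 7.89 in knockdown and 7.49, 6.96, 7.36 and 7.42 in control. For ITGB8 the difference in response was -0.24 ± 0.12 (95% interval -0.49 to -0.00026), for ITGA2 -0.23 ± 0.08 (-0.40 to -0.07) and for ITGAM -0.30 ± 0.10 (-0.51 to -0.10). ITGB4 had 0.38 ± 0.17 (0.03 to 0.72), ITGB5 0.16 ± 0.06 (0.05 to 0.28) and COL9A3 0.43 ± 0.11 (0.19 to 0.66). None of these passed the adjusted threshold, which does not show that the arms responded alike. Without the array control 2 h replicate 4, 1 member was called for the mean of 4 hours, and without all arrays numbered 4 COL26A1 and COL9A3 were called at 2 h.

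Knockdown and IL1B values of the same gene share control arrays, so they are set side by side here without a test. In all, 14 members were called in both. How many of all probe sets were called in both, in the same or in opposite directions, was not counted, so these genes are only described. Both were positive and called for COL4A1 (0.37 ± 0.06 for knockdown, 1.24 ± 0.10 for IL1B), COL4A2 (0.23 ± 0.05, 0.67 ± 0.09), ITGA2 (0.53 ± 0.03, 0.54 ± 0.05), ITGA5 (0.20 ± 0.04, 0.83 ± 0.06), ITGAV (0.18 ± 0.03, 0.34 ± 0.06) and COL5A2 (0.15 ± 0.03, 0.17 ± 0.06). ITGB4 (0.69 ± 0.07, -0.92 ± 0.11), ITGA11 (0.46 ± 0.06, -0.46 ± 0.11), ITGA10 (0.29 ± 0.06, -0.41 ± 0.10), ITGA3 (0.29 ± 0.04, -0.27 ± 0.07), LAMA5 (0.22 ± 0.06, -0.41 ± 0.10), ITGA6 (0.13 ± 0.04, -0.33 ± 0.07) and LAMB1 (0.09 ± 0.03, -0.45 ± 0.05) were higher with knockdown and fell with IL1B. ITGB8 had the reverse order (-0.13 ± 0.05, 2.42 ± 0.08).

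Genes that work with these proteins were taken from 4 lists. Their counts stand beside all probe sets, of which 10.9% were higher and 12.1% lower in the knockdown mean. For the IL1B mean in control, 18.1% of all probe sets rose and 21.2% fell. Of 33 measured adhesion complex genes, which link integrins to actin and include ITGB1BP1, 12 were higher in knockdown and 0 lower, with a list median of 0.08. Examples are the tetraspanin CD82 (0.48 ± 0.06), the scaffold PXN (0.30 ± 0.06) and the linkers VCL (0.26 ± 0.04) and TLN2 (0.22 ± 0.05). TLN1 (0.10 ± 0.06), which activates integrins, and the integrin activator FERMT2 (0.01 ± 0.04) were not called. After IL1B 5 of the 33 rose and 9 fell (median -0.06), with FERMT2 up by 0.61 ± 0.06, its relative FERMT1 at -0.58 ± 0.08 and the adaptors TNS2 and KANK2 at -0.96 ± 0.07 and -0.75 ± 0.09.

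Of 12 measured partners of hemidesmosomes and basement membranes, 6 were higher and 1 lower in knockdown (median 0.16). They included the collagen-binding SPARC (0.67 ± 0.07), the nidogens NID2 (0.40 ± 0.05) and NID1 (0.35 ± 0.07), which bridge laminin and collagen IV, and the cytoskeletal linkers DST (0.28 ± 0.05) and PLEC (0.20 ± 0.06), and the lower gene was FBLN1 (-0.13 ± 0.03). With IL1B 1 of the 12 rose, NID2 (0.95 ± 0.09), and 4 fell, among them PLEC (-0.63 ± 0.10), which binds ITGB4 in hemidesmosomes, and the laminin receptor BCAM (-0.42 ± 0.05).

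Among 18 other matrix ligands of integrins 9 were higher and 3 lower in knockdown (median 0.08), with the microfibril protein FBN1 (0.43 ± 0.05) and EDIL3 (0.42 ± 0.07) highest and VTN (-0.36 ± 0.09) and FGA (-0.36 ± 0.12) lowest. FN1, the fibronectin gene, stood at 0.04 ± 0.05 for knockdown and 0.02 ± 0.09 for IL1B, neither of them called. Of the 18, 3 rose and 5 fell with IL1B, TNC by 2.07 ± 0.11 and the matricellular CCN2 and CCN1 by -1.18 ± 0.09 and -0.82 ± 0.11. Collagen folding, processing and crosslinking was mixed: of 25 measured genes 7 were higher and 6 lower in knockdown (median 0.00), with the crosslinking enzyme LOXL2 at 0.33 ± 0.06, the procollagen protease BMP1 at 0.30 ± 0.04 and the transport coat protein SEC23A at -0.42 ± 0.03. With IL1B 6 of these 25 rose and 9 fell. The protease TLL1 was highest at 1.66 ± 0.10 and P3H4 lowest at -0.61 ± 0.05. LOXL4 stood at -0.39 ± 0.08, the prolyl hydroxylase subunit P4HA2 at 0.37 ± 0.07 and the collagen chaperone SERPINH1 at -0.34 ± 0.08. Each list is to be read against all probe sets. Of these, 10.9% were higher and 12.1% lower in knockdown, and 18.1% rose and 21.2% fell with IL1B.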

How the data were processed

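The authors deposited 1 table of log2 levels, with a row per probe set and a column for each of 38 arrays. RMA, Affymetrix Power Tools, hg19 and limma 3.22.7 are listed, per the submitters' processing notes, with neither role nor order. The levels were used as deposited, and the precision is limited by the number of arrays. Gene names come from the platform annotation, and 1 probe set per gene was used. The groups and replicate numbers come from the labels.

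All 38 arrays and 14488 probe sets entered 1 fit of the 10 group means with limma 3.58.1 in R 4.3.3 (empirical Bayes, no trend), and p-values were adjusted by Benjamini-Hochberg for each contrast. Every adjusted p in the text is limma's. On simulated data with the same groups, 39 of 50 probe sets changed by 0.25 and all 50 changed by 0.5 were recovered for the knockdown mean. There were 10 false calls among the unchanged. The simulated spread was independent between arrays and between probe sets, whereas real arrays of 1 number tended to deviate together. These rates therefore check the fit and need not hold for the data. Replicates were checked for duplicates, and at most 0.0207% of probe sets had equal values in 2 arrays of a group.

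The members, the gene lists and the motifs were chosen with earlier results of these data known. CCAAT was added later still. Named were the 12 largest called knockdown means, the 8 highest and 8 lowest called IL1B means in control, the 6 smallest joint p-values, the listed partner subunits, and up to 4 genes per list with the largest values. FN1, TLN1, FBLN1, BCAM, FERMT2 for knockdown, PLEC for knockdown, SERPINH1 and the remaining members were named outside this rule, after their values were seen. Promoter sequences are those of RefSeq (GRCh38.p14), with 35 of 47 members matched by gene identifier. Alternatives were a replicate block (fixed and random), quantile normalization, subtracted array medians, no dim probe sets, variance trend with robust moderation, array weights, and leaving out each array and each replicate number.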

Additional observations from a re-analysis of the deposited data

Results flagged for a closer look

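Of 184 pairs of a named member and a group of 4 arrays, 4 held an array that stood far from the other 3, where chance gives about 1 in 20. COL4A1 in control 4 h replicate 4 read 8.55, with the others at 8.04 to 8.10. ITGB4 in control 2 h replicate 4 read 11.06, with the others at 10.55 to 10.62. ITGA6 in knockdown 2 h replicate 2 read 10.02 against 10.36 to 10.38, and in knockdown 10 h replicate 2 it read 9.84 against 10.07 to 10.10. Over all alternatives, including those without these arrays, the knockdown mean stayed within 0.34 to 0.40 for COL4A1 and 0.62 to 0.75 for ITGB4, with both called throughout. For ITGA6 it stayed within 0.10 to 0.18, and the call was lost without the arrays numbered 1, 3 or 4.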

How the results depend on the processing

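Of the 24 members called for the knockdown mean, 17 were called under all alternatives run, and of the 26 called for the IL1B mean in control 19 were. Across these 2 comparisons no called member changed sign. The 7 knockdown calls lost somewhere were COL21A1, ITGA6, ITGB1BP1, ITGB3, ITGB8, LAMA5 and LAMB1, and the 7 IL1B calls were COL18A1, COL26A1, COL5A2, COL9A2, COL9A3, ITGB3BP and LAMC1. Without the probe sets below the median level, which leaves 17 members, 12 were higher in knockdown, 7 rose and 7 fell with IL1B in control, and 5 fell with IL1B in knockdown. The same filter gave 6, 14, 13 and 12 members called for IL1B in control at 2, 4, 8 and 10 h, and 2, 5, 2 and 3 for knockdown at 0, 2, 4 and 10 h. Array weights gave 16 that rose with IL1B in knockdown, 16 called for IL1B in control at 2 h, 16 and 18 for knockdown at 0 and 2 h, and 6 (mean) and 4 (joint test) for the difference in response. Quantile normalization gave 5 for knockdown at 0 h. The cause of these moves was not tested, beyond the fewer members under the filter. Scaling moved the median of all probe sets by at most 0.06. Array weights raised the calls among all probe sets too. For the knockdown mean 12.6% were higher and 14.7% lower with them, against 10.9% and 12.1% in the main fit. The counts by hour, and those for the IL1B means in either arm, are given without the share of all probe sets under the same setting. They show only how far the members' counts moved.

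The labels do not say that a replicate number marks a shared culture or day. Deviations from the group means correlated above 0.1 in 107 of 162 pairs of arrays with the same number (median 0.18; 34 of 36 pairs numbered 4, median 0.32) and in 104 of 487 pairs with different numbers (median -0.06). Arrays of 1 number thus tended to deviate together, most of all those numbered 4, but not every pair did. The main fit leaves this shared deviation in the spread. Fits with a block are given as alternatives, and the random block had a correlation of 0.14. With the replicate block, knockdown called 8 members at 4 h and 13 at 10 h, and the joint test 1, beside 0.469% of all probe sets. A random block called 11 at 10 h. Leaving out 1 array or 1 replicate number gave 4 to 9 that fell with IL1B in knockdown, 0 to 2 lower in knockdown, 5 to 14 for IL1B in control at 2 h, and 0 to 1 for the mean difference in response. For knockdown by hour it gave 1 to 9 at 0 h, 3 to 14 at 2 h, 1 to 6 at 4 h, 1 to 8 at 8 h and 2 to 7 at 10 h. For these ranges and the block counts by hour, the shares of all probe sets are not given. Averaging several probe sets of a gene was not run, since each member has 1. Without detection values, changes of the dimmest members cannot be set against background.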
